A study of Homo sapiens with 2 samples.

Results

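The genes described here copy chromatin onto newly replicated DNA: UHRF1, DNMT1 and HELLS, which maintain DNA methylation, the histone chaperones CHAF1A, CHAF1B, ASF1A, ASF1B and NASP, the histone acetyltransferase HAT1, and EZH2, the methyltransferase of Polycomb repressive complex 2 (PRC2). They were named by symbol, and every probe set that the array annotation assigns to exactly 1 of these symbols was taken, which gave 20 probe sets for 10 genes among 41097 single-gene probe sets for 19775 genes. The data comprised 2 arrays of CL1-5, a human lung adenocarcinoma line with strong invasive capacity: 1 culture was kept for 24 h with 0.11 µM analogue 3, an analogue of the plant product desmosdumotin C with iodo, tripropyl and methoxy groups, and 1 for 24 h with the solvent DMSO. The dose equals the median effective dose that the submitters give for this compound in these cells, and both cultures were of 1 line, grown in the same serum-containing medium. The comparison asks which transcripts differ after exposure to the compound. There was 1 array per group, so differences could not be set against replicate spread and carry no p-value. As each array measured a whole culture, fewer cells of a type and less RNA per cell cannot be told apart.

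When a replication fork passes, the parental DNA strand stays methylated and the new strand is not. UHRF1 binds such hemimethylated CpG sites and recruits DNMT1, the maintenance DNA methyltransferase, and HELLS, a nucleosome remodeller, helps methylation reach packed DNA. Behind the fork, new histones H3 and H4, acetylated on H4 by HAT1 and held by NASP and ASF1, pass to chromatin assembly factor 1 (CAF-1), which is tethered to the sliding clamp PCNA and deposits them. EZH2 writes the repressive methyl mark on lysine 27 of histone H3. Several of these genes are known as targets of E2F factors, which drive transcription of replication genes at the entry to S phase.

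All 10 genes were measured, and in each the intensity of the brightest probe set was higher with analogue 3. Intensities are linear and given in multiples of the array median. Genes that reached a floor of 8 on either array were taken as measured, values under the floor were raised to it before taking log2 differences, and a gene was called different at 2-fold. Of the 10 genes, 9 reached the floor on both arrays. ASF1B reached it with analogue 3 alone, so this rule fixed the sign of its floored difference. UHRF1, HELLS, CHAF1A, CHAF1B and EZH2, that is 5 of 10 genes, were at least 2-fold higher, and none was at least 2-fold lower. Of all 8523 measured genes, 3.74% were at least 2-fold higher and 3.92% at least 2-fold lower. The median log2 difference of the 10 genes was 1.13 (quartiles 0.71 and 1.56), or 2.20-fold, against -0.05 over all measured genes (quartiles -0.36 and 0.24). A difference above 0 was seen in 44.5% of all measured genes. At a threshold of 1.5-fold 8 of the 10 genes were higher, against 9.6% of measured genes, and at 3-fold 2 were, UHRF1 and HELLS, against 0.845%. CHAF1A, at 2.9994-fold, fell just short of 3-fold. A floor of 32 array medians left 8 of the genes measured, and 2 of these, again UHRF1 and HELLS, were at least 2-fold higher, against 3.47% of measured genes. Their DMSO values (28.3 and 29.6) lay under that floor. UHRF1 and HELLS thus counted as measured there through the analogue 3 array alone, with lower bounds of log2 2.13 and 1.74. DNMT1, ASF1A, NASP and HAT1, which reached that floor on both arrays, were under 2-fold.

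**Figure D1:**
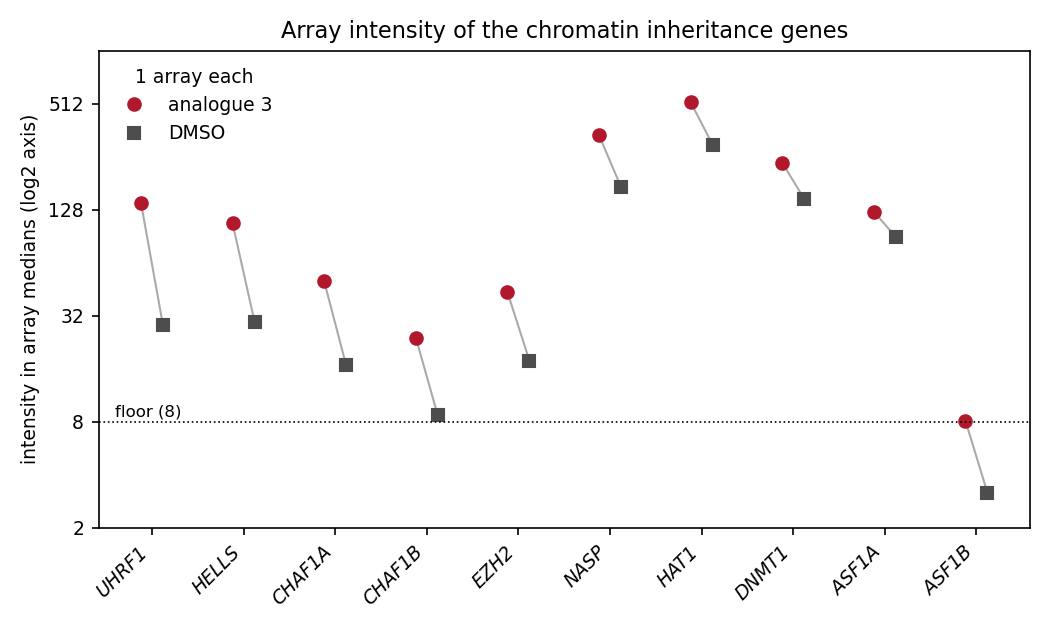
Intensity of the brightest probe set of each gene on the analogue 3 array (red circles) and the DMSO array (grey squares), in multiples of the array median on a log2 axis, 1 array each. The genes run from the largest difference (UHRF1, 139.8 with analogue 3 and 28.3 with DMSO) to the smallest measured on both arrays (ASF1A), with ASF1B (8.11 with analogue 3 and 3.17 with DMSO) last because the floor leaves only a lower bound for it. Heights of different genes cannot be compared, since each has its own probes.

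Promoters are shown for the 5 genes at least 2-fold higher and for DNMT1, because E2F-type letters recur in them close to the gene start. ASF1A is added as an example without such letters. NASP, HAT1 and ASF1B, also without them, are not shown, so the display was chosen by these letters. NASP and HAT1 differed by more than DNMT1. RefSeq promoter windows of GRCh38.p14, from 250 bases before to 50 after the gene start, were found for all 10 genes. They were searched on both strands for an E2F-type core, TTNNCGC with G or C at each N. The stretches below run from 150 bases before to 20 after the gene start, 5′ to 3′ on the gene's strand, with matches to a core in capitals. UHRF1 lies at chr19:4909351-4909520 (plus strand), HELLS at chr10:94545638-94545807 (plus), CHAF1A at chr19:4402490-4402659 (plus), CHAF1B at chr21:36385242-36385411 (plus), EZH2 at chr7:148884272-148884441 (minus), DNMT1 at chr19:10194934-10195103 (minus) and ASF1A, shown as a window without a core, at chr6:118894002-118894171 (plus).
UHRF1: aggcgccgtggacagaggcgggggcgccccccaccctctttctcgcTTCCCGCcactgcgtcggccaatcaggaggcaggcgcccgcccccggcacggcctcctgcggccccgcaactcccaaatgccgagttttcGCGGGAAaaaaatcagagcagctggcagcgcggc
HELLS: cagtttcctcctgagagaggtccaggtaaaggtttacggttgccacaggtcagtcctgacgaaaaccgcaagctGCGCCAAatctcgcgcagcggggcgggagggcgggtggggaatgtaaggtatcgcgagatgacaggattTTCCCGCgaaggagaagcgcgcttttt
CHAF1A: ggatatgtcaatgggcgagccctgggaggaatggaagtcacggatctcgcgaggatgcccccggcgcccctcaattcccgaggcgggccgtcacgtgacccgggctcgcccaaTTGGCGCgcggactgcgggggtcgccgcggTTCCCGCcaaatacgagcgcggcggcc
CHAF1B: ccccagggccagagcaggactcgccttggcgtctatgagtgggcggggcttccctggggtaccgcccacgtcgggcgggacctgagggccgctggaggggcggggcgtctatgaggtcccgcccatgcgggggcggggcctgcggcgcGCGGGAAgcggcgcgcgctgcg
EZH2: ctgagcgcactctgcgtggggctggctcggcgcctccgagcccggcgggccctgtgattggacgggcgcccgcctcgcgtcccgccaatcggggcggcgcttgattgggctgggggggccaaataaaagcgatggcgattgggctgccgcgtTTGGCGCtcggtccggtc
DNMT1: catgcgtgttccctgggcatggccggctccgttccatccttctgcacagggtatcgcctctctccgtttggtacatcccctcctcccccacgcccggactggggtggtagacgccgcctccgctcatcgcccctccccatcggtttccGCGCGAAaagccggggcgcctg
ASF1A: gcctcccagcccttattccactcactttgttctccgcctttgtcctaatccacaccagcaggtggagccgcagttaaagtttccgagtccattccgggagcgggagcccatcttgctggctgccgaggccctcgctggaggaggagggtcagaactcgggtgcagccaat

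A core was present in the windows of 6 of 10 genes (60%), against 22.1% of 7149 promoters of measured genes and 13.1% of all 27305 promoters. It was in 5 of 5 windows of the genes at least 2-fold higher and in 1 of 5 windows of the others, that of DNMT1. This split depended on the settings: ASF1B, without a core, also passed 2-fold with a floor of 2 array medians or none (log2 1.36), and NASP, without a core, passed with median centring (1.01) or with the median of its probe sets (1.08), which makes it 5 of 6 in each case. With a floor of 32 array medians, CHAF1A and EZH2, both with a core, were bounds under 2-fold (0.65 and 0.45). Without probe sets ending in _s_at or _x_at, NASP was among the 4 genes past 2-fold, with UHRF1, HELLS and CHAF1B. Among 272 promoters of all genes at least 2-fold higher, 37.9% held a core, 36% the CHR letters and 54.8% CCAAT, so the E2F-type core was not the only one of these letter groups found more often there than in promoters of measured genes. UHRF1, HELLS and CHAF1A each had a pair of cores, UHRF1 starting 104 and 14 bases before the gene start, HELLS 76 and 7, and CHAF1A 37 and 7. CHAF1B, DNMT1 and EZH2 had 1 each, and that of EZH2 starts at base 3 after the gene start. The core of CHAF1B and that of DNMT1 both span the start. These are matches of letters and were not tested as binding sites.

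The CCAAT and GC box letters were spread more evenly over the 10 genes than the E2F-type core. The CCAAT box, the site of the factor NF-Y (letters CCAAT), was in 8 of 10 windows (80%), 4 of the 5 genes at least 2-fold higher and 4 of the other 5, and in 37.9% of promoters of measured genes. In CHAF1A a pair of CCAAT matches, 1 on each strand, overlaps each other and the core 37 bases before the start. The GC box (GGGCGG) was in 9 of 10 windows (90%) and in 73% of promoters of measured genes. The CHR element of genes that peak in G2 and mitosis (TTTGAA or TTCGAA) was found only in ASF1B, 27 bases before the start, and in 11.4% of promoters of measured genes.

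**Figure D2:**
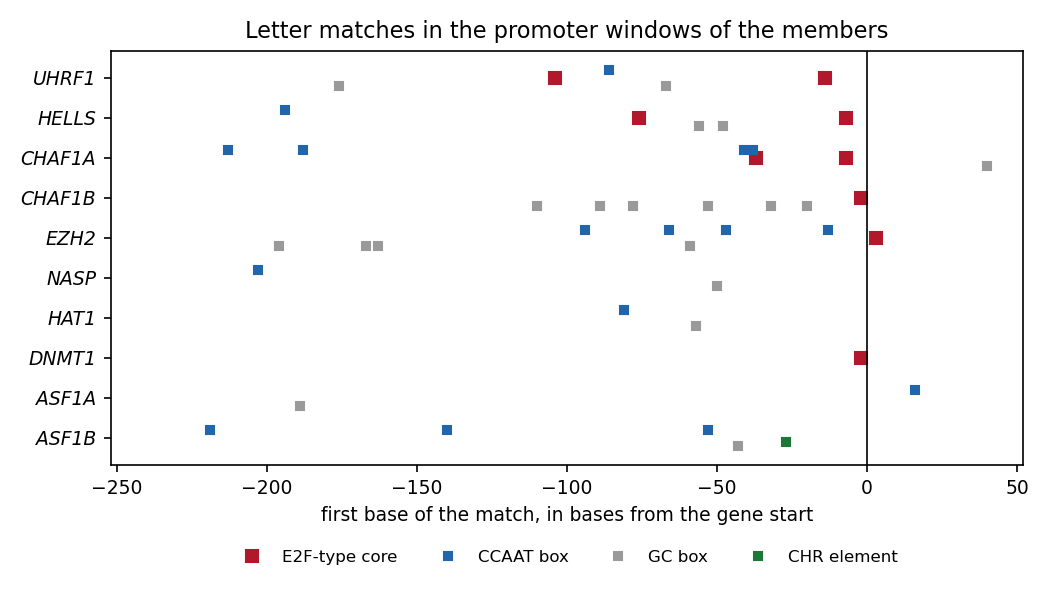
Matches to the E2F-type cores (red), CCAAT (blue), GGGCGG (grey) and the CHR letters (green) in the promoter window of each gene, by the distance of their first base from the gene start. Genes run from the largest difference at the top to ASF1A, with ASF1B, a lower bound only, at the bottom, and red marks lie in the upper 5 rows and in DNMT1.

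UHRF1, the reader of hemimethylated CpG sites, showed the largest difference of the 10. Its only probe set, 225655_at, read 139.8 with analogue 3 and 28.3 with DMSO, or 4.94 times as much (log2 2.30). Among all measured genes 3 had a larger upward difference, so UHRF1 ranked at 4. No other probe set was there to check this value. Its paralogue UHRF2 read 81.2 with analogue 3 and 65.8 with DMSO, a log2 difference of 0.30.

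DNMT1, the enzyme that UHRF1 recruits, differed far less. Its probe set 201697_s_at read 236.9 with analogue 3 and 147.5 with DMSO, or 1.61-fold (log2 0.68), and 7.4% of measured genes had a larger upward difference. Within the maintenance pair the reader thus differed by more than the writer, by 1.62 on the log2 scale. The de novo methyltransferases, which methylate sites that had no mark, lay near the floor. DNMT3B read 15.2 with analogue 3 and 9.54 with DMSO (log2 0.67), and DNMT3A read 10.5 with analogue 3 and 12.9 with DMSO (log2 -0.30).

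HELLS, the remodeller, had 5 probe sets, and all 5 read higher with analogue 3. The brightest, 227350_at, read 107 with analogue 3 and 29.6 with DMSO, or 3.61-fold (log2 1.85). The probe set 223556_at read 52.2 with analogue 3 and 17.2 with DMSO (3.03-fold), and 220085_at read 21.9 with analogue 3 and 9.58 with DMSO (2.29-fold). In 227349_at the values were 10.0 with analogue 3 and 3.34 with DMSO, under the floor, which bounds its fold at 1.25 or more. The last, 234040_at, reached the floor on neither array (6.42 with analogue 3, 1.36 with DMSO) and has no fold. The size of the HELLS difference thus depended on the probe set, and its direction did not. CDCA7, the partner that activates HELLS, was picked out after its values were seen. It read 136.4 with analogue 3 and 69.6 with DMSO (log2 0.97), and its other measured probe set differed by 1.30.

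CAF-1 was higher in both of its dedicated subunits, by close to the same amount. CHAF1A, the large subunit that binds PCNA, read 50.2 with analogue 3 and 16.7 with DMSO in the brightest probe set, 214426_x_at, or 3.00-fold (log2 1.58). The ending _x_at marks probes that can share sequence with other transcripts, and the probe set 203975_s_at gave the same size, at 37.7 with analogue 3 and 12.6 with DMSO (log2 1.58). In 203976_s_at the values were 20.1 with analogue 3 and 7.34 with DMSO, a bound of at least 2.51-fold. The fourth, 229808_at, lay near the bottom of the scale (0.216 with analogue 3, 0.210 with DMSO) and has no fold. CHAF1B, the middle subunit, read 24.1 with analogue 3 and 8.69 with DMSO, or 2.77-fold (log2 1.47). Both CHAF1B values were low, and the DMSO value was just above the floor. The log2 differences of the 2 subunits were 0.12 apart, less than the spread of such a gap between probe sets (SD 0.32, from all genes with several probe sets). The third subunit of the complex, RBBP4, which also serves PRC2 and other complexes, read 270.4 with analogue 3 and 200.8 with DMSO (log2 0.43). Its 4 other measured probe sets differed by -0.04 to 0.51.

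The ASF1 pair hands H3-H4 dimers to CAF-1 and to the HIRA complex, and ASF1A was under 2-fold while ASF1B was known only as a bound. ASF1A read 124.8 with analogue 3 and 89.7 with DMSO in 203428_s_at (1.39-fold, log2 0.48) and 43.0 with analogue 3 and 36.2 with DMSO in 203427_at (1.19-fold). ASF1B, the paralogue known as the proliferation-linked one, read 8.11 with analogue 3 and 3.17 with DMSO in its only probe set, 218115_at. The analogue 3 value just reached the floor, so the fold of ASF1B is bounded only at 1.01 or more. With a floor of 2 array medians in place of 8, the log2 difference of ASF1B was 1.36. The data therefore do not settle whether ASF1A or ASF1B differed more.

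NASP, which stores soluble H3-H4, lay at the threshold. Its brightest probe set, 201970_s_at, read 339.4 with analogue 3 and 172.4 with DMSO, or 1.97-fold (log2 0.98). Its other probe sets were past 2-fold, at 41.5 with analogue 3 and 19.6 with DMSO in 242918_at (2.12-fold) and at 18.0 with analogue 3 and 6.49 with DMSO in 201969_at (at least 2.25-fold). HAT1, which acetylates new histone H4 in the cytoplasm together with RBBP7, read 523 with analogue 3 and 299.7 with DMSO in its only probe set, 203138_at (1.75-fold, log2 0.80). RBBP7 read 367 with analogue 3 and 266.2 with DMSO (log2 0.46).

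EZH2 read 43.6 with analogue 3 and 17.8 with DMSO in its only probe set, 203358_s_at, or 2.45-fold (log2 1.29). Its paralogue EZH1, the form used more in cells that do not divide, had the opposite sign. EZH1 read 14.1 with analogue 3 and 19.9 with DMSO, a log2 difference of -0.50, and -0.32 in its other measured probe set. Of the other core subunits, EED read 166.7 with analogue 3 and 93.8 with DMSO (log2 0.83), and SUZ12 read 254.6 with analogue 3 and 210.1 with DMSO (log2 0.28). EED and SUZ12 thus had the sign of EZH2 and smaller differences.

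**Figure D3:**
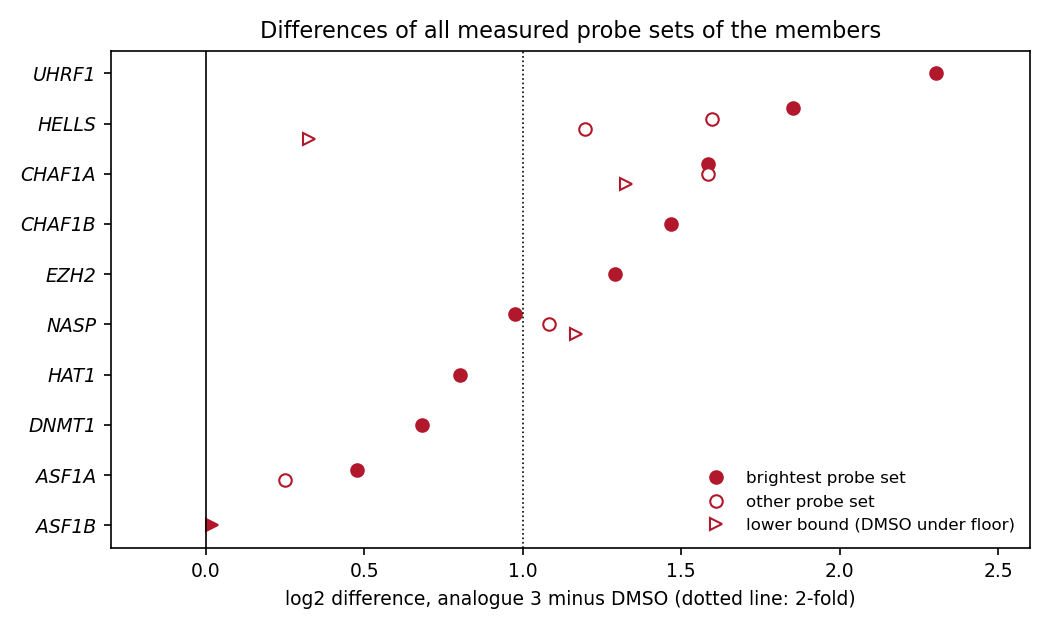
Log2 difference, analogue 3 minus DMSO, of the 18 measured probe sets of the 10 genes. Filled marks are the brightest probe set of a gene, open marks the others, and triangles lower bounds where the DMSO value was under the floor. All lie right of 0, the triangles by the floor rule, and 11 lie past the dotted 2-fold line.

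Of the 20 probe sets, 18 were measured, 14 of them on both arrays and 4 on the analogue 3 array alone. Of the 18, 11 were at least 2-fold higher, against 3.53% of all measured single-gene probe sets. The 11 include 203976_s_at of CHAF1A and 201969_at of NASP, which count as measured through the analogue 3 array alone. They belong to UHRF1, HELLS, CHAF1A, CHAF1B, NASP and EZH2, and probe sets of the same gene are not independent. The spread between probe sets is the technical error that 2 arrays can show. Over 2874 genes that had 2 or more probe sets measured on both arrays, the SD of a single probe set's log2 difference was 0.23, so that a gap between 2 genes has an SD of 0.32. This leaves out the error of culture, RNA and hybridisation. In falling order of log2 difference the 9 genes measured on both arrays were UHRF1, HELLS, CHAF1A, CHAF1B, EZH2, NASP, HAT1, DNMT1 and ASF1A. ASF1B, known only as a lower bound, has no place in this order. Among neighbours the gap between UHRF1 and HELLS (0.45) exceeded 0.32, and the other 7 gaps, of 0.12 to 0.31, did not.

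**Figure D4:**
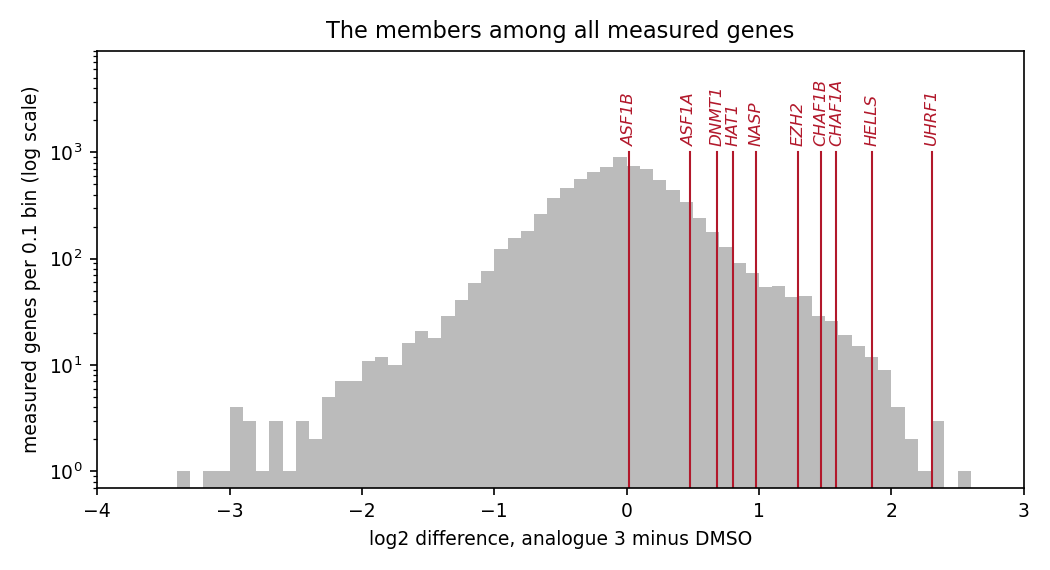
Number of measured genes (log axis) by log2 difference, analogue 3 minus DMSO, in bins of 0.1, with the 10 genes marked by red lines. UHRF1, at 2.30, stands near the right end of the 8523 genes, while ASF1B, a lower bound of 0.02, stands close to 0.

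Related genes were taken from lists of other chromatin functions, whose counts stand beside the 3.74% of all measured genes at least 2-fold higher, the 3.92% at least 2-fold lower and the 44.5% above 0. In the list of histone supply and fork-coupled deposition, 4 of 10 measured genes were at least 2-fold higher and none was at least 2-fold lower. The median log2 difference was 0.45, and 8 of the 10 lay above 0. PCNA, the clamp that tethers CAF-1 and DNMT1, read 683.1 with analogue 3 and 216.3 with DMSO, or 3.16-fold. LIG1, the ligase that joins Okazaki fragments and whose methylated form UHRF1 binds, read 28.6 with analogue 3 and 7.91 with DMSO, a bound of at least 3.58-fold. LIG1 thus counts as measured through the analogue 3 array alone. MCM2, a helicase subunit that also carries parental histones, was 2.96-fold higher, and DNAJC9, a histone co-chaperone, 2.21-fold. The kinase TLK1, which phosphorylates ASF1 and was picked out after its values were seen, had the lowest value of the list, with a log2 difference of -0.65 in its brightest probe set and 0.09 in the other. PCNA, LIG1 and MCM2 thus had differences of the size seen in CAF-1, and TLK1 did not.

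PRC2 partners had a median log2 difference of 0.35 over 10 measured genes, of which 7 lay above 0. In this list 1 gene was at least 2-fold higher and none was at least 2-fold lower. That gene was PHF19, a PRC2 accessory protein that binds the lysine 36 mark of histone H3, at 276.9 with analogue 3 and 111.8 with DMSO (2.48-fold). Its 2 other measured probe sets differed by 0.67 and 1.40 on the log2 scale. The list of DNA methylation enzymes and readers had a median of 0.08 over 13 measured genes, of which 8 lay above 0. None was at least 2-fold higher and 1 was at least 2-fold lower. That gene was MBD1, a reader of methylated DNA, at 24.2 with analogue 3 and 49.5 with DMSO, a log2 difference of -1.03. Apart from the maintenance genes, then, the DNA methylation list had a median close to the -0.05 of all genes.

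The list of other histone chaperones had a median of 0.27 over 14 measured genes, of which 10 lay above 0. Among the 14, 1 gene was at least 2-fold higher and none was called lower. HJURP, which deposits the centromeric histone CENP-A, read 75.7 with analogue 3 and 23.8 with DMSO, or 3.18-fold. HIRA, the chaperone that deposits histone H3.3 outside replication, lay on the other side, at 6.41 with analogue 3 and 15.9 with DMSO, a log2 difference of -0.99 or lower, since the analogue 3 value was under the floor, so a 2-fold lower level is not excluded. DAXX and ATRX, which deposit H3.3 at repeats and telomeres, differed by 0.42 and 0.06 in their brightest probe sets, and ATRX by -0.37 and -0.33 in its other measured ones. In the CAF-1 route both dedicated subunits were therefore higher by over 2-fold, and in the H3.3 routes none of HIRA, DAXX and ATRX was, a contrast that 2 arrays cannot test. Heterochromatin writers and readers had a median of 0.49 over 10 measured genes, of which 9 lay above 0. SUV39H2, a methyltransferase for lysine 9 of histone H3, was the 1 gene past 2-fold, at 29.7 with analogue 3 and 14.4 with DMSO (2.06-fold).

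**Figure D5:**
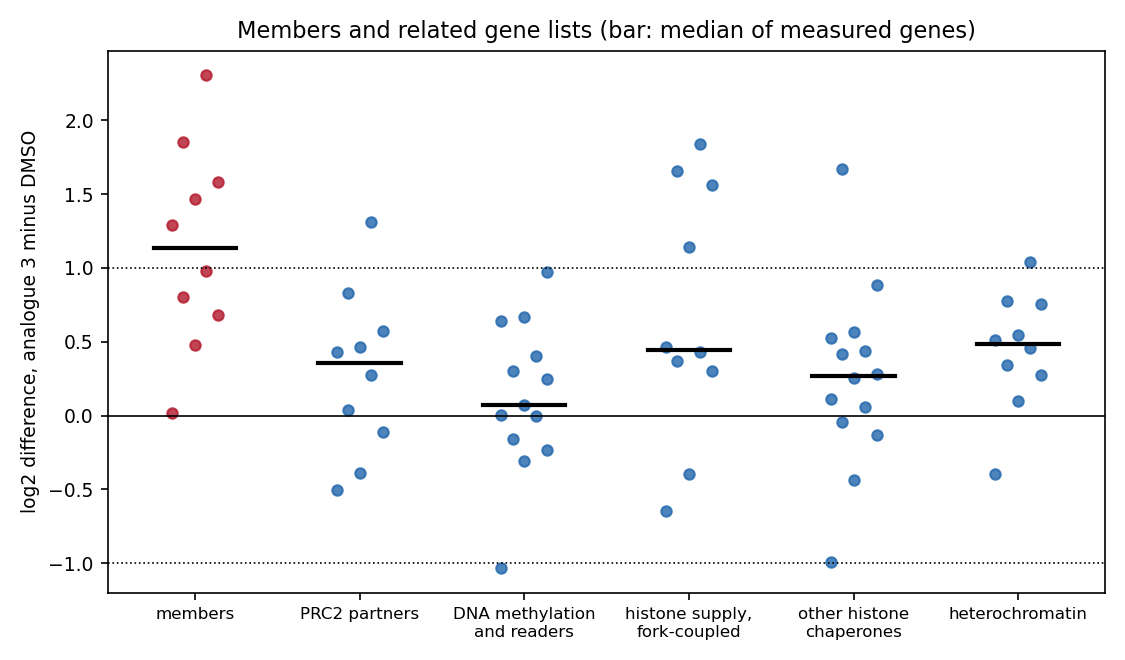
Log2 difference, analogue 3 minus DMSO, of each measured gene among the 10 members (red) and in 5 related lists (blue), with the median of each as a black bar and 2-fold as dotted lines. The medians are 1.13 for the members and 0.35, 0.08, 0.45, 0.27 and 0.49 for the lists from left to right.

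On the array as a whole, 26% of probe sets reached the floor with analogue 3 and 26.8% with DMSO. The 18 hybridisation spike probe sets differed by -0.14 to 0.17 on the log2 scale. For GAPDH the 3′ signal was 1.18 times the 5′ signal with analogue 3 and 1.21 times with DMSO, and for ACTB 10.0 times with analogue 3 and 11.8 times with DMSO. Markers of other cell types stayed low, with summed intensities of 2.55 with analogue 3 and 3.07 with DMSO over 4 leukocyte genes, and of 8.18 with analogue 3 and 6.57 with DMSO over 5 fibroblast genes. Over 4 endothelial genes they were 19.0 with analogue 3 and 14.4 with DMSO, and of these PECAM1 alone reached the floor, at 15.7 with analogue 3 and 11.4 with DMSO. Of 7 genes listed for epithelial carcinoma, 3 reached the floor. These were KRT18 (457.9 with analogue 3 and 460.8 with DMSO), KRT8 (77.8 with analogue 3 and 42.3 with DMSO) and VIM. KRT7 (2.65 with analogue 3 and 1.92 with DMSO) and KRT19 (5.23 with analogue 3 and 2.235 with DMSO) were under the floor, as were EPCAM and CDH1. VIM, a mesenchymal marker, read 1868 with analogue 3 and 1883 with DMSO. EPCAM read 0.339 with analogue 3 and 0.347 with DMSO, CDH1 read 0.536 with analogue 3 and 0.409 with DMSO, and all 6 lung epithelial markers were under the floor on both arrays. The part of these values in the differences above was not tested.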

How the data were processed

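Total RNA of 2 CL1-5 cultures was labelled with biotin and, per the labels' protocols, hybridised to Affymetrix U133 Plus 2.0 human arrays. The intensity values the authors deposited cover 54675 probe sets and are linear. GCRMA, which corrects background by probe sequence, is named in the submitters' processing notes, and its version is not given in the sources used here. Each array had a median of 1, from which a scaling to that median was inferred; no label states it.

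GEO's platform annotation gave the gene names: 41097 carried 1 symbol, 1801 several and 11777 none. All 20 probe sets of the members had a gene number and symbol found in RefSeq (GRCh38.p14). Of a gene's single-gene probe sets, the one brightest over both arrays (mean log2) represented it. The floor of log2 3 replaced a floor of log2 5 from earlier work on these data, which had been set for another scale. Computations used Python 3.11.15, numpy 2.4.6, pandas 2.3.3 and statsmodels 0.14.6, and were tested on simulated data.

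The members and lists were chosen with earlier results of these data known. Named were all members, 12 list genes fixed by name, all list genes past 2-fold, and genes marked as picked out after their values were seen. The rule also asked for the 3 genes nearest in level to UHRF1 and to DNMT1, which are not named, since levels of different probe sets cannot be compared. The number of arrays limits the precision. Alternatives were other floors, scalings, probe set choices and thresholds.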

Additional observations from a re-analysis of the deposited data

How the results depend on the processing

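Over 8 alternatives of floor, scaling and probe set choice, all 75 differences of single genes stayed above 0, and 70 moved by no more than the probe set SD of 0.23. Where the floor of log2 3 was kept, it fixed the sign for ASF1B. The floor of log2 5 fixed the sign for UHRF1, HELLS, CHAF1A and EZH2, whose DMSO values lay under it. The count of genes at least 2-fold higher was 5 of 10 in the main setting (3.74% of all genes). Under 7 of these alternatives it was 4 to 6, against 2.4% to 4.04% of all genes. The 4 was of 7 measured genes, without probe sets ending in _s_at or _x_at, and the other counts were of 10. With a floor of log2 5 the count was 2 of 8 measured genes (3.47% of all genes), with a median of 0.74. There UHRF1, HELLS, CHAF1A and EZH2 became bounds of 2.13, 1.74, 0.65 and 0.45, and CHAF1B and ASF1B were not measured. The floor caused these moves, since it replaced their DMSO values. At 1.5-fold 8 genes were called (9.6% of all genes), and at 3-fold 2 (0.845%). ASF1B was 1.36 with a floor of log2 1 or with none, and HELLS 1.40 with the median of its probe sets. Without probe sets ending in _s_at or _x_at, DNMT1, CHAF1A and EZH2 had none measured. No paired analysis was possible because there was 1 array per group. Low signal limits CHAF1B and ASF1B most.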

Other observations

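KMT5B, a methyltransferase for lysine 20 of histone H4, gave opposite signs in its probe sets and, like CBX5, was picked out after its values were seen. The brightest, 222759_at, read 41.4 with analogue 3 and 32.7 with DMSO (log2 0.34). The probe set 218242_s_at read 25.8 with analogue 3 and 52.2 with DMSO (log2 -1.01), and 222566_at read 7.88 with analogue 3 and 17.1 with DMSO, a bound of -1.10. CBX5, the gene of heterochromatin protein HP1 alpha, ranged from 0.08 to 1.21 over its 4 measured probe sets. The direction of KMT5B and the size of the CBX5 difference therefore depend on the probe set taken, and the cause was not tested.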
